A study of Mus musculus with 9 samples.

Results

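Collagens and laminins are the structural proteins of extracellular matrix and basement membrane, and their genes were followed here in purified mouse retinal ganglion cells (RGCs) under 2 levels of intraocular pressure (IOP) elevation. Members were chosen by gene symbol alone: every listed collagen chain (Col, a number, a, a number) and every listed laminin alpha, beta or gamma chain (Lama, Lamb or Lamc with 1 digit). The rule found 55 genes of 23997 symbols, namely 44 collagen chains and 11 laminin chains. The type VI collagen chains Col6a1 and Col6a2 were the only members whose level differed past the test's threshold in the reported fit, and they did so between the Moderate IOP and Mild IOP groups. They were 2 of 21 tested members (9.52%), beside 10.2% of all tested genes. Both calls were lost in several fits that left out a single library. Neither IOP group differed past the threshold from Control in any tested collagen or laminin gene.

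The RGCs came from retinas of C57BL/6J mice, with no transgene or deletion in any group, that were 8 weeks old by the sample labels and 6 weeks old at injection by the series design. Control eyes received saline and the Mild IOP and Moderate IOP eyes received microbeads in the anterior chamber, and cells were isolated after 2 weeks. Isolation used immunopanning, in which coated plates first took out phagocytic, vascular, fibroblastic and amacrine cells and a Thy1.2 plate then held the RGCs. RNA was pooled within a group and the pool was split into 3 libraries, so each group is 1 pool measured 3 times, and every error and p-value below covers technical spread and not the spread between mice. The Moderate IOP pool was made from fewer retinas than the other pools.

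Each of the 9 libraries was described by FPKM, a number of sequenced fragments scaled to transcript length and library size. A depth derived from the deposited confidence bounds lay between 4370000 and 7810000 fragments per library, and 14182 to 14914 genes were above 0. RGC markers were present in every library, with a summed level of 10 genes of 1450 to 1533 scaled FPKM in Control, 1065 to 1311 in Mild IOP and 2289 to 2434 in Moderate IOP. RNA of other retinal cells was present as well: 8 amacrine cell markers summed to 933 to 1326 scaled FPKM over the 9 libraries, and 8 Muller glia markers to 591 to 657. The Muller sum was mostly Dkk3 (485 ± 16.1 in Control), with Rlbp1 at 4.46 ± 0.156 and Slc1a3 at 2.06 ± 0.292 in the same group (SD, n = 3 libraries). Of 10 endothelial markers Cdh5, Cldn5 and Tie1 were at 0 in all libraries and the list summed to at most 7.77, and 6 fibroblast markers summed to at most 2.29. Lens genes separated Control from the rest, with 292 to 346 scaled FPKM over 9 genes in Control against at most 5.71 in any IOP library.

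A collagen molecule is a trimer of alpha chains wound into a triple helix. Fibrillar collagens build fibrils, FACIT collagens sit on fibril surfaces, collagen IV forms the network of basement membranes, and collagen VI forms beaded microfilaments around cells. A laminin is a trimer of 1 alpha, 1 beta and 1 gamma chain, and laminins with collagen IV, nidogens and perlecan make the basement membrane. In the retina this membrane is the inner limiting membrane, on which the axons of RGCs run and to which the end-feet of Muller glia attach, and it also surrounds retinal vessels.

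Most of the family was near the limit of measurement. Of the 55 genes, 21 (38.2%) had a mean of at least 0.5 scaled FPKM over the 9 libraries and entered the test, compared with 54.4% of all genes. These were 18 collagen chains and 3 laminin chains (Lamb1, Lamc1 and Lamc3). A further 34 genes lay below that level, and 30 of them did not reach 1 scaled FPKM in any library. Col22a1 and Col6a3 were at 0 in all 9 libraries. Only 4 genes had a mean of at least 5 scaled FPKM, and 11 had a mean of at least 1.

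Type VI collagen gave the highest level in every library. Col6a1, its alpha 1 chain, was at 66.6, 45.6 and 33.7 scaled FPKM in the 3 Control libraries, 60.2, 63.8 and 57.7 in Mild IOP and 39.2, 31.1 and 39.5 with Moderate IOP. The Control libraries overlapped both IOP groups, whereas every Moderate IOP library was below every Mild IOP library. Averaged over the 9 libraries, Col6a1 was above 84.4% of tested genes. On its own it made up 38.2% to 57.6% of the summed FPKM of all 55 genes.

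Col6a2, the alpha 2 chain of the same trimer, was at 8.56, 9.89 and 12.5 scaled FPKM in Control, 11.5, 10.1 and 12.1 in Mild IOP and 5.57, 8.17 and 5.83 with Moderate IOP. Every Moderate IOP library was below all 6 others. Since FPKM is scaled to transcript length, the chains can be compared within a library, and Col6a1 exceeded Col6a2 by 2.71 to 7.78 times. The Control library with the highest Col6a1 had the lowest Col6a2, and the Control library with the lowest Col6a1 had the highest Col6a2. The same held in Mild IOP. In Moderate IOP the library with the lowest Col6a1 had the highest Col6a2. Col6a3, the chain that usually completes the trimer, was at 0 throughout, and of its alternatives Col6a4 averaged 0.958 while Col6a5 and Col6a6 averaged 0.0499 and 0.0665.

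Col6a2 and Col6a1 are neighbouring protein-coding genes on the minus strand of chromosome 10 in mm10, Col6a2 at chr10:76595756-76623404 and Col6a1 at chr10:76708792-76726044. No exon of either overlaps another gene in the GENCODE M21 annotation, which matters because the libraries were not strand-specific. Their promoters are shown here because these are the members that passed the test. The sequences are from RefSeq on GRCm38.p6 (the assembly of mm10), read 5′ to 3′ on the gene's strand, limited to bases upstream of every annotated exon, with capitals for a match to GGGCGG on either strand in Col6a2. They are Col6a2 at chr10:76623631-76623880 (250 bases) and Col6a1 at chr10:76726169-76726294 (126 bases).
Col6a2: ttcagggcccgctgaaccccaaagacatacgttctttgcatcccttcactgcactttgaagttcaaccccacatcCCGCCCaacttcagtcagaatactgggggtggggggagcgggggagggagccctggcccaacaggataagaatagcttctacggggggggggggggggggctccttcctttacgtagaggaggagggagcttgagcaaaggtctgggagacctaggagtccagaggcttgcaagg
Col6a1: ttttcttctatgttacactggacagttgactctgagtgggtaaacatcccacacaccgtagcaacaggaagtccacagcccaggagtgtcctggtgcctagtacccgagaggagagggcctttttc

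Windows of 250 bases before each RefSeq start were searched on both strands for the TATA box TATAAA, the box CCAAT, the GC box GGGCGG and the AP-1 consensus TGANTCA, 4 sets of letters that do not contain each other. RefSeq windows were found for 40 of the 55 genes, 44 windows in all. Neither gene held a TATAAA or the box CCAAT, which were in 12.4% and 33.9% of all 32851 windows. Col6a2 has a pair of starts, whose windows held 3 and 1 copies of GGGCGG, and the Col6a1 window held 0, against 32.7% of all windows with at least 1 copy. The Col6a1 window held the only TGANTCA among the 44 member windows, a motif found in 6.75% of all windows, at chr10:76726118-76726144 with the match in capitals.
Col6a1 TGANTCA stretch: gctgatgctgTGACTCActcagctttg
The windows of the 2 genes therefore shared none of the 4 searched motifs. Unlike the sequences shown above, the windows were not limited to bases upstream of every annotated exon. The Col6a1 match lay outside the 126 bases shown, on the gene side of the outermost annotated exon edge. In the Col6a2 window with 3 copies, 24 bases were upstream of every annotated exon, and no copy lay wholly within them.

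**Figure D1:**
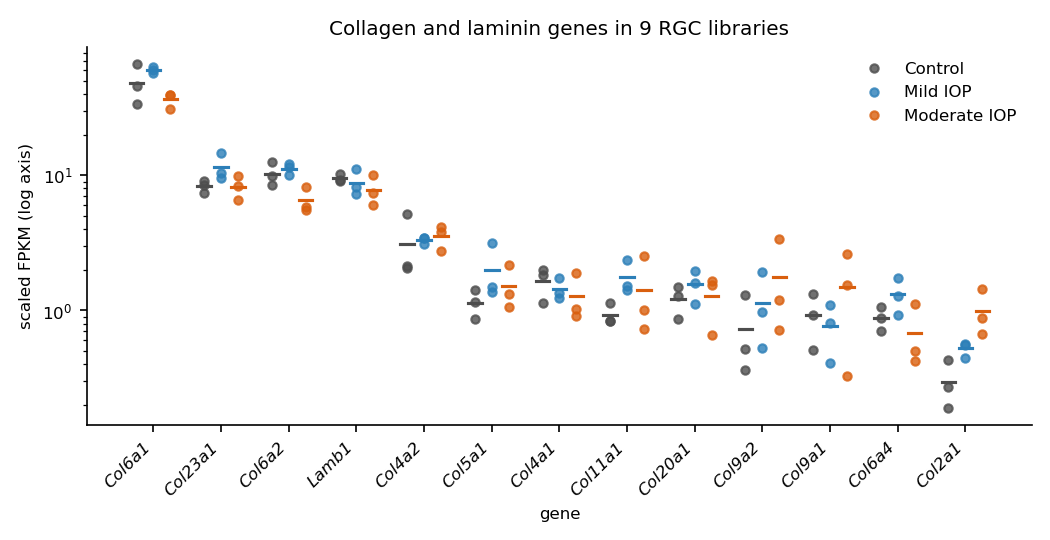
Scaled FPKM (log axis) of the 12 collagen and laminin genes with the highest mean and of Col2a1, 1 point per library with a bar for the group mean, in Control, Mild IOP and Moderate IOP (3 libraries each). Col6a1 lies well above the rest at 31.1 to 66.6, Col23a1, Col6a2 and Lamb1 follow, and most other genes lie between 0.3 and 3.5 with wide scatter among libraries of a group.

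Col23a1, a transmembrane collagen, and Lamb1, the laminin beta 1 chain, were the other genes above 5 scaled FPKM. Col23a1 was at 8.45, 9.13 and 7.46 scaled FPKM in Control, 10.5, 9.65 and 14.8 in Mild IOP and 9.85, 8.34 and 6.56 with Moderate IOP. Lamb1 was at 9.32, 10.2 and 9.16 in Control, 11.1, 8.16 and 7.26 in Mild IOP and 6.09, 10.02 and 7.46 with Moderate IOP. All Mild IOP libraries were above all Control libraries for Col23a1, and the 3 groups overlapped for Lamb1. The mean levels of Col23a1, Col6a2 and Lamb1 over the 9 libraries (9.41, 9.35 and 8.75 scaled FPKM) differed by less than the spread between libraries, so their order was not resolved.

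Lamb1 gave most of the laminin signal. It made up 67.3% to 80.1% of the summed laminin FPKM in each library. Its partner gamma chain Lamc1 averaged 0.897 scaled FPKM, and Lamb1 exceeded Lamc1 by 5.89 to 46.9 times, the widest ratio coming from Control 3, where Lamc1 rested on 8 fragments. The 5 alpha chains, without which a laminin trimer is not completed, summed to 0.384 to 1.26 scaled FPKM per library. The highest of these were Lama1 (mean 0.354) and Lama4 (mean 0.324), and Lama2 was above 0 in 1 library with 1 fragment.

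Collagen IV was represented by its ubiquitous pair of chains. Col4a2 averaged 3.34 and Col4a1 averaged 1.46 scaled FPKM, while Col4a3, Col4a4, Col4a5 and Col4a6 each averaged at most 0.0502. Col4a1 and Col4a2 are head-to-head neighbours on chromosome 8 whose starts lie 3 bases apart in the files, and their ratio ran from 1.08 to 4.62. Col4a2 was at 2.05, 2.14 and 5.19 scaled FPKM in Control, 3.11, 3.42 and 3.43 in Mild IOP and 4.18, 3.83 and 2.75 with Moderate IOP. The Control 3 library stood above the other Control libraries for Col4a2 and below them for Col4a1, which was at 1.83, 1.99 and 1.13 in Control.

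**Figure D2:**
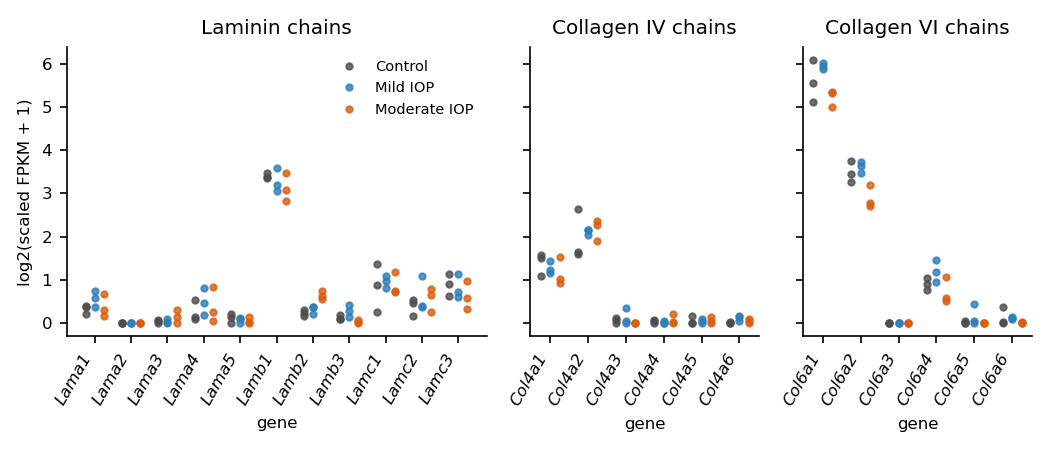
Level of each laminin chain, collagen IV chain and collagen VI chain as log2(scaled FPKM + 1), 1 point per library, in Control, Mild IOP and Moderate IOP. In each family 1 or 2 chains carry the signal (Lamb1, Col4a1 with Col4a2, and Col6a1 with Col6a2), and the laminin alpha chains and Col6a3 lie at or near 0.

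The fibrillar collagens of connective tissue were barely detected. Col1a1, Col1a2 and Col3a1, which build the fibrils of skin, bone, sclera and vessel walls, summed to 0 to 0.531 scaled FPKM and to 0 to 26.9 fragments per library, with the highest value from Moderate IOP 2. The fibrillar chains that were measured were Col5a1 (mean 1.56 scaled FPKM), which starts fibril assembly, and the cartilage collagens Col11a1 (1.38), Col11a2 (0.837) and Col2a1 (0.603). The summed fibrillar level was 3.68 ± 0.339 scaled FPKM in Control, 6.13 ± 1.44 in Mild IOP and 4.80 ± 1.32 with Moderate IOP (SD, n = 3 libraries each).

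Among FACIT collagens, Col20a1 averaged 1.35 scaled FPKM, Col9a2 1.21 and Col9a1 1.06. The chains of collagen IX, which are assembled together, did not vary together between libraries: Col9a1 was highest in Moderate IOP 2 (2.61) and lowest in Moderate IOP 3 (0.329), whereas Col9a2 and Col9a3 were highest in Moderate IOP 3 (3.38 and 3.31). These values rested on 4.65 to 66.7 fragments for Col9a1 and on 5 to 52.8 for Col9a2.

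**Figure D3:**
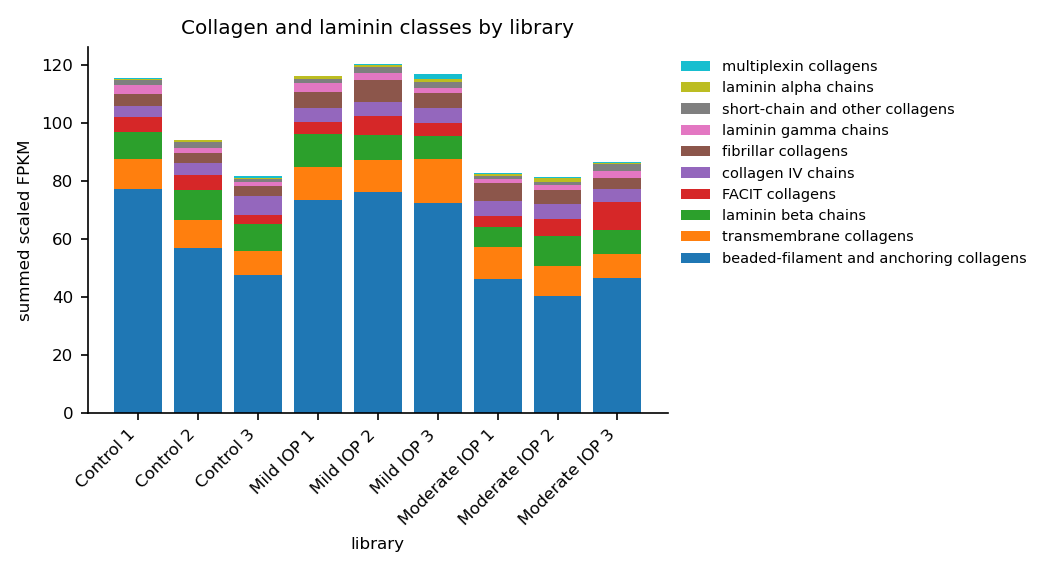
Summed scaled FPKM of each collagen and laminin class, stacked by library. The class with collagen VI is the tallest part of every bar and spans 40.4 to 46.6 in Moderate IOP, 72.2 to 76.2 in Mild IOP and 47.7 to 77.1 in Control, and no other class exceeds 15.5 in a library.

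Technical replicates of a pool differed by more than the deposited bounds allow. For Col6a1 the unscaled FPKM with its deposited bounds was 67.8 (64.8 to 70.9) in Control 1 and 33.9 (31.3 to 36.5) in Control 3, although both libraries came from the same RNA. The values rested on 1976 and 686 fragments. Over the 21 tested genes, 67 of 189 pairs of libraries from the same group had bounds that did not overlap, and 19 of the 21 genes had at least 1 such pair. The comparisons below therefore use the spread between libraries and not the deposited bounds.

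**Figure D4:**
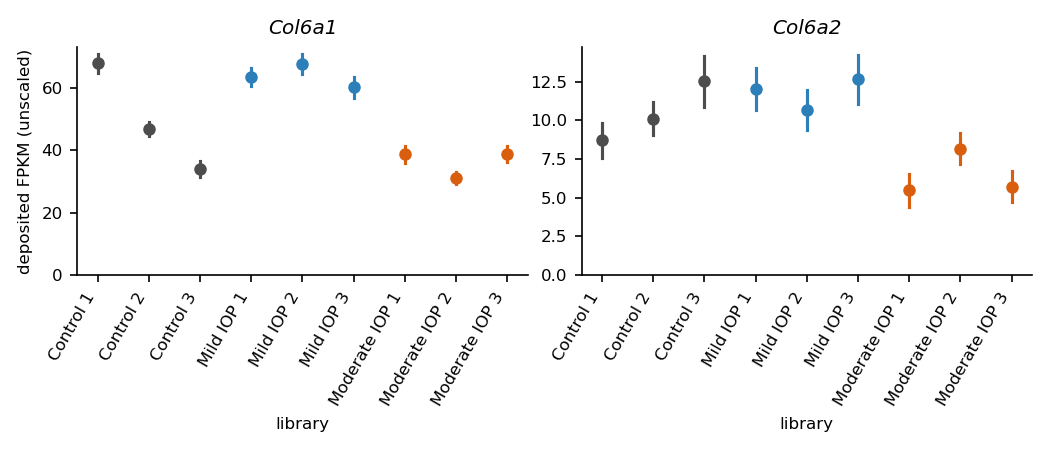
Deposited FPKM of Col6a1 and Col6a2 in each library (points) with the lower and upper confidence bounds of the deposited estimate (lines), coloured by group. For both genes the Moderate IOP points lie below the Mild IOP points, and the Control points of Col6a1 run from 33.9 to 67.8, much farther apart than their bounds.

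The first comparison asked whether Mild IOP changed the family relative to Control. In limma, fitted to the logarithm to base 2 of scaled FPKM plus 1, 0 of 21 members passed a false discovery rate (FDR) below 0.1, where 0.399% of all 13043 tested genes did, and 0 had an unadjusted p below 0.05, where 10.2% of all tested genes did. The median log2 fold-change of the 21 genes was 0.13, beside 0.01 for all tested genes, with 16 values above 0 and 5 below. On this scale a fold-change understates the change of a low gene. Mild IOP libraries lay above every Control library for Col23a1, Col11a1 and Col2a1 (3 of 21 genes, 14.3%, beside 7.94% of all tested genes in this direction and 17.1% in either).

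The largest fitted value was for Col11a1, with a log2 fold-change of 0.51 (95% confidence interval −0.19 to 1.21, limma FDR = 0.644). Col11a1 was at 0.838, 0.829 and 1.13 scaled FPKM in Control and 1.42, 2.38 and 1.53 in Mild IOP. Col5a1 had a log2 fold-change of 0.45 (−0.22 to 1.12), Col23a1 of 0.42 (−0.06 to 0.89) and Col6a1 of 0.36 (−0.10 to 0.83). The Col6a1 value depended on single Control libraries, at 0.61 without Control 1 and 0.13 without Control 3. Lamb1 was at −0.12 (−0.60 to 0.37). The half-width of the interval ran from 0.457 to 1.16 with a median of 0.634. These intervals are not adjusted for the number of genes tested, so a difference had to exceed its half-width further to pass the FDR threshold. Lens RNA in the Control libraries (above) moved with this comparison, as did rod markers (282 to 324 scaled FPKM over 7 genes against 428 to 513 in Control). The 8 pericyte markers summed to 3.59 to 9.08 in Mild IOP against 0.724 to 2.30 in Control. That sum was mostly Rgs5 (1.09 ± 1.04 in Control and 4.99 ± 2.70 in Mild IOP, SD, n = 3 libraries each). Rgs5 was the only tested marker of the list and did not pass (limma FDR = 0.215). The part of these markers in the fold-changes was not tested.

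The second comparison set Moderate IOP against the same Control libraries, so its values share their Control samples with the first. Again 0 of the 21 genes passed an FDR below 0.1 in limma, where 1.84% of all tested genes did, while 2 (Col2a1 and Col6a2, 9.52%) had an unadjusted p below 0.05, beside 15.3% of all tested genes. The median log2 fold-change was 0.03, beside 0.00 for all tested genes, with 11 values above 0 and 10 below. Replicates did not overlap for 4 of the 21 genes (19.0%, beside 19.4% of all tested genes), with Col6a2, Col11a2 and Col12a1 below Control and Col2a1 above it. Lens genes were low in this group too, and rod markers were lower, at 284 to 321 scaled FPKM over the 7 genes. Of 7 tested Muller glia markers 2 were higher, Rlbp1 and Apoe (log2 fold-changes of 1.43 and 0.68, limma FDR = 0.0682 and 0.0599), and 0 lower. The median of that list was 0.60, while Dkk3 and Aqp4 had estimates of −0.20 and −0.17 without passing. Of 10 RGC markers 2 were higher and 0 lower, with a list median of 0.55, while Pou4f3 and Pou4f2 had estimates of −0.15 and −0.10 without passing. Of 7 tested amacrine cell markers 0 were higher and 2 lower, with a list median of −0.16. In that list Tfap2a, Slc32a1 and Tfap2b had estimates of 0.49, 0.29 and 0.06 without passing. The 8 pericyte markers summed to 3.43 to 5.66 scaled FPKM, against 0.724 to 2.30 in Control. That sum was again mostly Rgs5 (3.73 ± 0.554 in Moderate IOP), which did not pass (limma FDR = 0.189). The part of these markers was not tested.

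Col6a2 had a mean of 10.3 ± 1.99 scaled FPKM in Control and 6.52 ± 1.43 with Moderate IOP (SD, n = 3 libraries each). Its log2 fold-change was −0.59 (SE 0.208, limma FDR = 0.216), against 0.12 (SE 0.208, limma FDR = 0.902) in Mild IOP. Col6a1 had a log2 fold-change of −0.35 (SE 0.212, limma FDR = 0.459) in Moderate IOP and 0.36 (SE 0.212, limma FDR = 0.630) in Mild IOP against Control. For both chains the estimates therefore lay on opposite sides of 0 in the 2 IOP groups without either passing the threshold. Without Control 1 the Col6a1 value in Moderate IOP was −0.10, and without Control 3 it was −0.59.

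Col2a1, the main collagen of cartilage and vitreous, was at 0.429, 0.190 and 0.270 scaled FPKM in Control, 0.568, 0.444 and 0.559 in Mild IOP and 0.875, 1.43 and 0.666 with Moderate IOP. The 3 groups did not overlap, with Control lowest and Moderate IOP highest. Its log2 fold-change against Control was 0.60 in Moderate IOP (SE 0.275, limma FDR = 0.327) and 0.24 in Mild IOP (SE 0.275, limma FDR = 0.844). The Control values rested on 5.5 to 14.3 fragments and the Moderate IOP values on 18.3 to 58.7, and the gene did not pass the test.

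The third comparison set Moderate IOP against Mild IOP. Here 2 of the 21 genes passed an FDR below 0.1 (9.52%, beside 10.2% of all tested genes in either direction and 3.12% in the lower direction). Both were lower in Moderate IOP and both changed by at least 1.5 times, as 8.14% of all tested genes did in either direction. The share called was thus close to that of genes in general. The median log2 fold-change was −0.16, beside −0.02 for all tested genes, with 7 values above 0 and 14 below. Replicates did not overlap for 5 genes (23.8%, beside 27.5% of all tested genes), namely Col6a1, Col6a2, Col11a2 and Col12a1 with Moderate IOP lower and Col2a1 with Moderate IOP higher.

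Col6a1 fell from 60.6 ± 3.08 scaled FPKM in Mild IOP to 36.6 ± 4.73 in Moderate IOP (SD, n = 3 libraries each), a ratio of 0.604. Its log2 fold-change was −0.72 (SE 0.212, 95% confidence interval −1.18 to −0.25, limma FDR = 0.0767). Col6a2 fell from 11.2 ± 1.04 to 6.52 ± 1.43, a ratio of 0.581 and a log2 fold-change of −0.71 (SE 0.208, −1.17 to −0.26, limma FDR = 0.0733). The estimates for these 2 chains of the same trimer were thus nearly the same, but intervals this wide do not resolve whether the factors were equal. Within a group the 2 chains did not vary together between libraries (above). Col6a4 had an estimate of −0.47 (−1.10 to 0.15) that did not pass. Both calls are close to the threshold: neither gene passed when Mild IOP 1, Mild IOP 2, Mild IOP 3, Moderate IOP 1 or Moderate IOP 3 was left out, and Col6a1 did not pass without Control 2 or Moderate IOP 2, with log2 fold-changes over all single-library omissions of −0.77 to −0.61 for Col6a1 and of −0.87 to −0.62 for Col6a2.

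Markers of several cell types moved in the same comparison as collagen VI. Amacrine cell markers summed to 933 to 999 scaled FPKM in Moderate IOP against 1227 to 1326 in Mild IOP. Of 7 tested amacrine markers 3 were lower and 0 higher, among the lower the glycine transporter Slc6a9 (146 ± 3.81 in Mild IOP and 39.3 ± 6.93 with Moderate IOP). The fall was not shared by the whole list, whose median log2 fold-change was −0.03. Tfap2a, Slc32a1, Tfap2b and Pax6 had estimates of 0.42, 0.29, 0.13 and −0.03 without passing. Of 10 RGC markers 6 were higher in Moderate IOP and 0 lower. Of 7 tested Muller glia markers 2 were higher in Moderate IOP, namely Glul (log2 fold-change 0.96, limma FDR = 0.0124) and Apoe (0.63, limma FDR = 0.0294), while the sum of the list, mostly Dkk3, was 607 to 657 in Mild IOP and 598 to 646 in Moderate IOP. The 6 fibroblast markers summed to 1.03 to 2.29 scaled FPKM in Mild IOP and to at most 0.141 in Moderate IOP, where Dcn, Pdgfra, Dpt and Pi16 were at 0 after being above 0 in at least 1 Mild IOP library. Lum was at 0 in all 9 libraries. Clec3b went the other way, at 0 in every Mild IOP library and at 0.141 in Moderate IOP 2. Dcn was the only tested marker of this list, and the others were below the filter. The 8 pericyte markers summed to 3.59 to 9.08 in Mild IOP and to 3.43 to 5.66 in Moderate IOP. That sum was mostly Rgs5 (4.99 ± 2.70 and 3.73 ± 0.554), the only tested marker of the list. Kcnj8, Abcc9 and Pdgfrb, all below the filter, were lower in every Moderate IOP library than in every Mild IOP library. Their means were 0.752, 0.0987 and 0.155 in Mild IOP and 0.0180, 0.00724 and 0.0422 in Moderate IOP. Cspg4 and Myh11 also had lower means in Moderate IOP, and Acta2 and Tagln had higher ones. The part of these markers in the collagen VI difference was not tested, and in bulk libraries fewer cells of a type and less RNA per cell cannot be told apart.

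**Figure D5:**
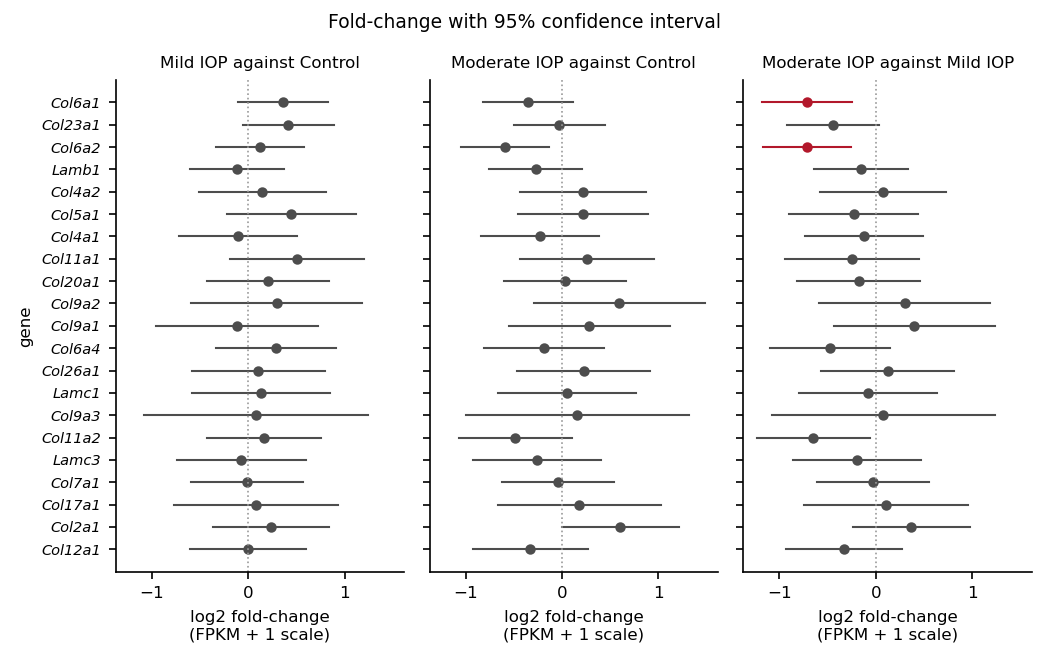
Log2 fold-change on the FPKM + 1 scale (points) with 95% confidence interval (lines) for the 21 tested genes, ordered by mean level, in each of the 3 comparisons. Red marks an FDR below 0.1, which was reached by Col6a1 and Col6a2 in Moderate IOP against Mild IOP and by none of the 21 in either comparison with Control.

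Proteins that bind, modify, receive or cut collagens and laminins were read from written lists. Among basement membrane and matrix binders, 8 of 16 genes were tested and 0 passed in Mild IOP against Control in limma. At an unadjusted p below 0.05 there were 2 (25.0%, beside 10.2% of all tested genes). In this list 1 gene was higher in Moderate IOP than Control (12.5%, beside 1.84% of all tested genes), and 1 was higher and 1 lower in Moderate IOP than Mild IOP (25.0%, beside 10.2%). The median log2 fold-changes of the list were 0.21, 0.08 and 0.02 in the 3 comparisons, beside 0.01, 0.00 and −0.02 for all tested genes. The gene that rose was Sparc, a secreted collagen-binding glycoprotein, at 7.48, 3.79 and 5.23 scaled FPKM in Control, 8.17, 8.57 and 8.51 in Mild IOP and 13.3, 27.5 and 25.7 with Moderate IOP. Every Moderate IOP library was above the other 6, and the log2 fold-change was 1.81 against Control (SE 0.285, limma FDR = 0.0190) and 1.24 against Mild IOP (limma FDR = 0.0313). Dcn, the fibril-binding proteoglycan decorin, was the gene that fell against Mild IOP (2.17, 1.48 and 0.869 in Mild IOP and 0 in all Moderate IOP libraries, limma FDR = 0.0466).

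The binders that link laminin to collagen IV were near 0. The nidogens Nid1 and Nid2 averaged at most 0.190 and 0.0226 scaled FPKM in any group, and perlecan (Hspg2) at most 0.0397. Agrn, the heparan sulphate proteoglycan agrin, was at 7.63 ± 1.77 in Control, 6.14 ± 0.840 in Mild IOP and 8.61 ± 2.52 with Moderate IOP and did not pass in any comparison. Smoc1, a calcium-binding matrix protein, was the most abundant of the list at 33.0 ± 4.78, 28.5 ± 3.74 and 26.3 ± 3.92 in the same order.

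Of 34 genes of collagen synthesis and processing, 26 were tested and 0 passed an FDR below 0.1 in limma against Control in either IOP group. At an unadjusted p below 0.05 there were 2 in Mild IOP (7.69%, beside 10.2% of all tested genes) and 0 in Moderate IOP (beside 15.3%). In Moderate IOP against Mild IOP, 1 was higher and 1 lower (7.69%, beside 10.2% of all tested genes), and the median log2 fold-change of the list was −0.03, beside −0.02 for all tested genes. Ppib, the cyclophilin that assists collagen folding, had a log2 fold-change of 0.59 (limma FDR = 0.0614) and Leprel2, a prolyl 3-hydroxylase, of −0.65 (limma FDR = 0.0936). The enzymes with general duties in the endoplasmic reticulum were abundant, such as P4hb at 92.1 ± 4.63 scaled FPKM in Control, whereas Serpinh1, the chaperone specific to collagen, averaged 0.123 to 0.285 in the 3 groups and was below the filter.

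Of 22 receptors, 13 were tested and 0 passed an FDR below 0.1 in limma in any of the 3 comparisons. At an unadjusted p below 0.05 there were 1 in Mild IOP against Control (7.69%, beside 10.2% of all tested genes), 4 in Moderate IOP against Control (30.8%, beside 15.3%) and 1 in Moderate IOP against Mild IOP (7.69%, beside 21.8%). The median log2 fold-changes of the list were 0.09, −0.18 and −0.19, beside 0.01, 0.00 and −0.02 for all tested genes. Bcam, a receptor for laminin alpha 5, was at 11.04, 13.4 and 9.16 scaled FPKM in Control, 6.58, 7.15 and 5.38 in Mild IOP and 8.34, 3.73 and 6.23 with Moderate IOP. All libraries of both IOP groups were below all Control libraries. The log2 fold-changes against Control were −0.72 in Mild IOP (SE 0.263, limma FDR = 0.360) and −0.82 in Moderate IOP (SE 0.263, limma FDR = 0.181), neither past the threshold in limma. The paper, with another test at the same thresholds, lists Bcam as lower in both IOP groups. Those present included Ddr1, a receptor kinase for collagens (22.9 ± 2.23 scaled FPKM in Control, 20.6 ± 3.53 in Mild IOP and 15.5 ± 1.58 with Moderate IOP), the laminin receptor dystroglycan (Dag1, 8.64 ± 2.26, 9.42 ± 1.26 and 7.50 ± 2.04) and the integrin chain Itgb1 (6.34 ± 0.522, 8.03 ± 0.842 and 10.3 ± 0.769). Itgb1 had a log2 fold-change of 0.63 in Moderate IOP against Control with a limma FDR of 0.141. Of 20 matrix proteases and inhibitors, 11 were tested and 1 was lower in Moderate IOP than Mild IOP (9.09%, beside 10.2%), the membrane metalloproteinase Mmp24 (log2 fold-change −0.64, limma FDR = 0.0614). Against Control 0 were called in limma. There 1 in Mild IOP (9.09%, beside 10.2% of all tested genes) and 2 in Moderate IOP (18.2%, beside 15.3%) had an unadjusted p below 0.05. As with the collagens, these are differences between pools, and the same cell markers moved beside them.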

How the data were processed

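RNA of immunopanned RGCs was made into SMART-seq v4 and Nextera XT libraries and read from both ends. The authors aligned the reads to mm10 and ran Cufflinks, and the deposited unit is FPKM, estimated in each of the 9 libraries with confidence bounds. Trimmomatic and TopHat2 are also named in the processing notes, and the annotation is not given in the sources used here. Here FPKM was summed per symbol. The fragments behind a value were taken as the square of 2 × FPKM / (upper bound − FPKM) and cover counting error only. Library depth was derived from the longest GENCODE M21 transcript of each gene over 2000 nt with 100 or more fragments. After median-of-ratios scaling, limma 3.58.1 (R 4.3.3) was fitted to log2(scaled FPKM + 1) of the 13043 genes whose mean reached 0.5 and whose estimates had not failed, with 1 mean per group, all 9 libraries sharing the spread, and a variance trend. FDR is the Benjamini-Hochberg value over all tested genes. The thresholds (FDR 0.1, fold-change 1.5) are those of the study, which applied them to another test. The fit was also run on simulated data with 1 assumed spread for all genes and changes only in genes with a mean of at least 5 scaled FPKM. Only 4 of the 55 members reach that mean, so the simulation does not cover changes in the rest. Groups and replicate numbers came from the labels, which name no batch. Alternatives covered scaling, pseudocounts of 0.1 and 0.5, the filter, failed estimates, the groups in the fit, a replicate block and leaving out each library. The members and lists were chosen with earlier results of these data known. Genes named in detail had an FDR below 0.1, or an unadjusted p below 0.05 and non-overlapping replicates against Control, or were among the 12 with the highest mean. Other genes named were chosen after their values were seen. Python 3.11.15, pandas 2.3.3 and matplotlib 3.10.9 made the summaries and figures.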

Additional observations from a re-analysis of the deposited data

Results flagged for a closer look

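The estimates for Mild IOP and Moderate IOP, both against the same Control libraries, differed by the fitted contrast between them for 2 genes. Control cancels in this contrast, so it is the third comparison above and not a further test. Neither gene passed against Control in either IOP group, and both calls were lost in several single-library omissions (above). For Col6a1 the difference (Moderate IOP minus Mild IOP) was −0.72 on the log2 scale, and for Col6a2 it was −0.71, each with an FDR below 0.1 in limma. The explanation was not tested.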

How the results depend on the processing

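Under 19 settings, 0 collagen or laminin genes passed an FDR below 0.1 in either comparison with Control. In Moderate IOP against Mild IOP the number that passed was 2 in the fit reported and 1 with the replicate block, and it was 0 to 2 when single libraries were left out. The replicate block kept Col6a1 and not Col6a2 (limma FDR = 0.105), and without the filter Col6a1 did not pass (limma FDR = 0.135) and Col11a2 did. Replicate numbers name libraries of 1 pool, and same-numbered libraries did not deviate together (mean r of 0.0124 over 9 pairs), so they share only a number. For Col6a1 and Col6a2 in Moderate IOP against Mild IOP, the call was kept in 22 of 36 alternative fits and lost in 14 (8 for Col6a1 and 6 for Col6a2), with 0 changes of direction. Of 641 alternative values of fold-changes not called, 0 were called and 15 moved by more than their standard error. The causes were not tested. The 34 genes below the filter rested on at most 62.7 fragments in a library and were not compared in the fit reported.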

Other observations

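Lamb2, the laminin beta 2 chain, lay below the filter and was chosen after its values were seen. It was at 0.117, 0.184 and 0.235 scaled FPKM in Control, 0.165, 0.289 and 0.304 in Mild IOP and 0.553, 0.467 and 0.666 with Moderate IOP, resting on 5.0 to 23.7 fragments. The Moderate IOP libraries were above the other 6. In limma without the filter its log2 fold-change was 0.41 against Control (FDR = 0.130) and 0.32 against Mild IOP (FDR = 0.117), so it did not pass. The ratio of Lamb1 to Lamb2 was 39.0 to 79.9 in Control, 23.9 to 67.3 in Mild IOP and at most 21.5 in Moderate IOP.

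Several low genes were high in 1 library of a group. Col8a1, a short-chain collagen of vessel walls and corneal basement membrane, was at 1.35 scaled FPKM in Control 2 and at most 0.0774 in the other Control libraries. Col18a1, which yields endostatin, was at 1.02 in Mild IOP 3 and at most 0.0541 in the other Mild IOP libraries.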
